A study of Mus musculus with 77 samples.

Results

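Splicing is tuned by a family of kinases and by the proteins they phosphorylate, and 10 genes of that machinery were followed here through mouse dorsal root ganglia (DRG) at rest and after sciatic nerve injury. They are Rsrp1, the CDC-like kinases Clk1, Clk2, Clk3 and Clk4, and the SR splicing factors Srsf2, Srsf3, Srsf5, Srsf6 and Srsf7, taken by symbol from 17799 genes listed in any of the 6 deposited tables. The set was selected on measured values, because Rsrp1 and Clk1 were lower and Srsf5 was higher at 4 h after injury, so the 4 h values below are a description without a test. All 10 genes were listed in each of the 3 injury tables. Of the naive tables, 8 members were listed in each: Srsf2 was listed in none of them, Srsf7 was listed for the input alone, and Srsf3 was listed for the pull-down and the supernatant.

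RiboTag mice carry an HA tag on the ribosomal protein Rpl22 in cells that express Cre, so that an HA pull-down (IP) recovers the RNA bound to ribosomes of those cells. The drivers, all in males aged 8 to 12 weeks, were 5. Isl1-Cre (sensory neurons), Dhh-Cre (glia) and Runx3-Cre (proprioceptive neurons) mice were ICR, homozygous for the RiboTag allele and heterozygous for Cre. PGK-Cre mice (all cells of the tissue) had the same allele doses on C57BL/6, and Adv-Cre mice (sensory neurons) were C57BL/6 and heterozygous for both alleles. Naive DRG of each line gave the IP, the input (a part of the lysate set aside before the pull-down) and the supernatant that the beads left behind, with 3 libraries each except for the Dhh IP with 2. The injury series used lumbar DRG of Isl1-Cre and Dhh-Cre mice, either naive or at 4, 12 or 24 h after a sciatic nerve lesion. It held 12 Isl1 IP libraries (3 per group), 9 Isl1 input libraries (3 naive and 2 at each time) and 11 Dhh IP libraries (3 per group, 2 at 24 h). No sham-operated samples are among those analysed here, and one naive group served every time, so surgery, the hour of dissection and the lesion itself cannot be told apart. The labels do not say that the replicates came from separate animals, so the tests measure the spread between libraries.

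The CLK kinases are dual-specificity kinases of the nucleus, also called LAMMER kinases after a motif in their catalytic domain. They phosphorylate the arginine- and serine-rich tails of SR proteins, which releases these factors from nuclear speckles and changes which exons and introns are spliced. Clk1 and Clk4 transcripts are themselves known to be kept in the nucleus with introns retained, and SR protein genes carry poison exons that send their own transcripts to nonsense-mediated decay. Rsrp1 encodes a small arginine- and serine-rich protein.

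The CLK motif can be read in the transcripts. The stretches below come from GENCODE M21 transcripts (genome build GRCm38) of the kinases in which these 6 residues were found. Capitals mark the 18 bases that encode the motif, with 9 bases of coding sequence on either side.
Clk1: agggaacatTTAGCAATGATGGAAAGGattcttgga
Clk2: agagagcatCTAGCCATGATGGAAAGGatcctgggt
Clk4: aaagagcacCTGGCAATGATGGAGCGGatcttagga
Of the 18 capital bases, 16 were the same in Clk1 and Clk2, and 14 were the same in Clk1 and Clk4 and in Clk2 and Clk4. The transcript of Clk3 held no exact match.

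The members are protein-coding genes that do not neighbour each other (RefSeq, GRCm38.p6). Rsrp1 is at chr4:134923625-134927370, Clk1 at chr1:58411988-58424088, Clk2 at chr3:89164795-89177087, Clk3 at chr9:57750621-57766235 and Clk4 at chr11:51263114-51281770. Srsf2 is at chr11:116849897-116853675, Srsf3 at chr17:29032660-29043372, Srsf5 at chr12:80945495-80950507, Srsf6 at chr2:162931508-162937121 and Srsf7 at chr17:80200080-80207369. Annotated transcripts with a retained intron were present for 10 of 10 members, against 41.7% of 21877 protein-coding genes, and transcripts marked for nonsense-mediated decay for 9 of 10, against 20.5%. Clk1 has 13 annotated transcripts, 7 of them with a retained intron, and Clk4 has 14, 7 of them with one. Counts per gene do not separate these transcripts from the coding ones.

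Promoters are shown for Rsrp1 and Srsf5, which moved in opposite directions, and for Clk2 and Clk4, kinases with unlike courses. Each stretch is the 100 bases before the start that the RefSeq promoter table uses (GRCm38.p6, plus strand), which for Srsf5 lies 4 bases downstream of the gene start given above and for the others is that start. Capitals mark TGACG and, in Clk4, also the whole cyclic AMP response element TGACGTCA, whose core it is.
Rsrp1, chr4:134923525-134923624: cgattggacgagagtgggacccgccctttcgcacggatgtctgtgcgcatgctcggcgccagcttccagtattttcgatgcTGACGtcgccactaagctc
Clk2, chr3:89164695-89164794: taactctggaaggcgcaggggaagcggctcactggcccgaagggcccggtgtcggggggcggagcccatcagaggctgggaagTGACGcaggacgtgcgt
Clk4, chr11:51263014-51263113: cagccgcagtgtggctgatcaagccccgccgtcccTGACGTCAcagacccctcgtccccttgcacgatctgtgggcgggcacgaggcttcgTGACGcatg
Srsf5, chr12:80945399-80945498: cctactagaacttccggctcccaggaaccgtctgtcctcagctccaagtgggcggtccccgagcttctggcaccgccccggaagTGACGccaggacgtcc
TGACG began 19 bases before this start in Rsrp1, 17 in Clk2, 9 in Clk4 and 16 in Srsf5. Over windows of the 250 bases before the start, with both strands searched, 7 of the 9 members with a window (Clk1 was not in the table) held TGACG, against 17.8% of 32851 windows. Every TGACGTCA holds TGACG on both strands. TGACGTCA itself was found in 1 member (1.55% of windows), the E-box CACGTG in 1 (6.02%), CCAAT in 4 (33.8%), the GC box GGGCGG in 8 (32.7%) and the heat shock element GAANNTTC in 0 (6.69%). These matches describe letters in the windows.

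Total counts ran from 29710143 to 54088821 per library over 76 libraries. The summed level of 10 sensory neuron markers was 23730 to 27480 CPM (counts scaled to a library total of 1e+06) in the Isl1 IP of the injury series and 772.8 to 1078 in the Dhh IP, while that of 8 myelinating Schwann cell markers was 18480 to 27820 in the Dhh IP and 762.9 to 1202 over the 6 of them listed for the Isl1 IP. The Dhh injury libraries, which the labels call sensory neurons, are therefore described below by their driver, a glial one. In the Isl1 IP, the 5 listed satellite glia markers summed to 90.71 to 143.3 CPM except in replicate 3 of the 12 h group, at 671.9. Replicate 3 of the Dhh IP at 12 h was the lowest of its group for Rsrp1, Srsf2, Srsf3, Srsf6 and Srsf7. These are bulk samples, in which fewer cells of a type and less RNA per cell cannot be told apart.

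Per base of transcript, the SR factors were above the kinases in naive neurons. In the naive Isl1 IP of the injury series, Srsf5 stood at 70.8 ± 0.994 FPKM (CPM per kilobase of transcript, mean ± SD, n = 3), Srsf2 at 64.7 ± 1.96 and Rsrp1 at 57.5 ± 14.7. Srsf3 (43.9 ± 1.12), Srsf6 (36.6 ± 0.604) and Srsf7 (31.9 ± 1.61) followed, above Clk3 (16.4 ± 0.311), Clk1 (12.3 ± 3.01), Clk4 (7.66 ± 1.46) and Clk2 (3.82 ± 0.199). The spread of Rsrp1 took in the means of Srsf5, Srsf2 and Srsf3, so it has no place of its own among these 3. The naive Dhh IP gave another order: Srsf2 led at 143 ± 9.89 FPKM, and Clk1 (17.3 ± 5.13) and Clk4 (12.9 ± 2.12) stood above Clk3 (7.17 ± 0.722).

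At 4 h, the values that chose the members had the same direction in neurons and glia for Rsrp1 and Srsf5 and opposite directions for Clk1 and Clk4. Rsrp1 in the Isl1 IP was at 80.7, 91.2 and 129.7 CPM in naive libraries and at 23.0, 21.7 and 20.4 at 4 h, which is 4.60-fold lower. Clk1 was at 17.2, 21.4 and 27.9 CPM in naive libraries and at 7.43, 4.75 and 7.10 at 4 h, 3.43-fold lower. Srsf5 was at 112.8, 110.7 and 109.8 CPM and then at 193, 173 and 184, 1.66-fold higher. In none of these did the groups overlap. Clk4 had a smaller log2 difference, -0.57 ± 0.17 (SE). The Isl1 input gave log2 differences of -1.69 ± 0.23 for Rsrp1, -1.21 ± 0.19 for Clk1 and 0.63 ± 0.09 for Srsf5 at 4 h. The Dhh IP gave -1.25 ± 0.38 for Rsrp1 and 1.11 ± 0.36 for Srsf5, but Clk1 was 2.87-fold higher (log2 1.52 ± 0.20) and Clk4 was 2.55-fold higher (1.35 ± 0.18). Clk2 (0.33 ± 0.21) and Clk3 (0.26 ± 0.17) overlapped with naive there. Of the members outside the reasons for the choice, Clk2, Clk3, Srsf2, Srsf3 and Srsf7 in the Isl1 IP were between -0.10 and 0.09. Srsf6 gave 0.25 ± 0.10 there, and neither its libraries nor those of Clk4 overlapped with naive.

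**Figure D1:**
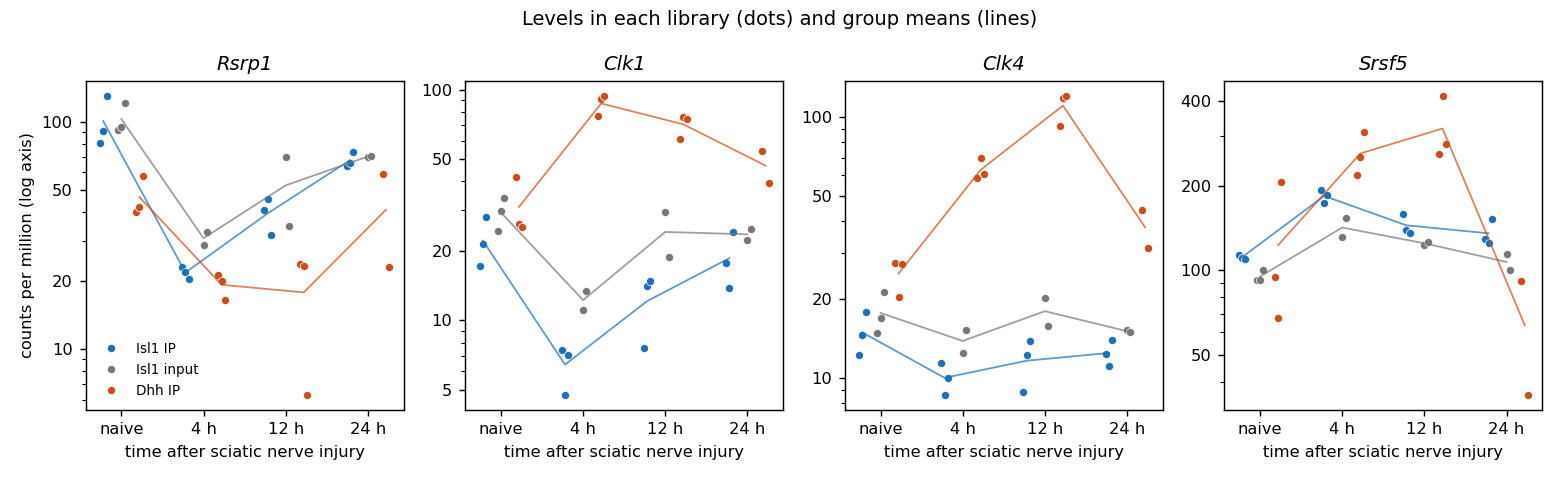
Levels of Rsrp1, Clk1, Clk4 and Srsf5 in CPM (log axis) in naive lumbar DRG and at 4, 12 and 24 h after sciatic nerve injury; dots are libraries, lines join group means, and colours are the Isl1 IP, the Isl1 input and the Dhh IP. Clk4 in the Dhh IP at 12 h lies between 92.7 and 121 CPM, above every other group, and Rsrp1 in the Isl1 IP is lowest at 4 h, at 20.4 to 23.0 CPM.

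In the neuronal pull-down, Rsrp1 was still low at 12 h and had partly come back by 24 h, whereas Srsf5 stayed above naive. The 12 h and 24 h values were tested with edgeR's quasi-likelihood test, Benjamini-Hochberg adjusted over all genes, at a false discovery rate (FDR) of 0.1, and they use the same naive libraries as the 4 h values. Rsrp1 was at 41.0, 45.8 and 31.7 CPM at 12 h and at 63.7, 65.8 and 73.4 at 24 h. Every 12 h library was above every 4 h library and below every 24 h library, and every 24 h library was below the 3 naive ones. Rsrp1 fell 2.51-fold at 12 h (log2 -1.33 ± 0.16, FDR 0.00141) and 1.46-fold at 24 h (-0.54 ± 0.16, FDR 0.0362). The 24 h call was lost without naive replicate 3, the highest library (-0.31, FDR 0.173). Between 12 and 24 h, a contrast with no share in the choice of members, Rsrp1 rose 1.72-fold (0.78 ± 0.16, FDR 0.00613), and this call held with each library left out in turn.

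Srsf5, an SR protein that activates inclusion of many exons, was at 159, 139 and 136 CPM at 12 h and at 129, 125 and 152 at 24 h, all above the 3 naive libraries. It rose by 0.40 ± 0.08 on the log2 scale at 12 h (FDR 0.0223) and by 0.31 ± 0.08 at 24 h (FDR 0.0177), and both calls held with each library left out. Clk1 was at 7.55, 14.0 and 14.8 CPM at 12 h, below all naive libraries, and at 17.8, 13.8 and 24.1 at 24 h, where the groups overlapped. Its 12 h call was at the edge (log2 -0.85 ± 0.26, FDR 0.0995) and was lost without any 1 of the 6 libraries compared, with log2 values from -1.01 to -0.61 and an FDR of up to 0.303. Clk4 gave -0.34 ± 0.17 at 12 h (FDR 0.298) and -0.23 ± 0.17 at 24 h (FDR 0.418).

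Srsf2 (SC35, a nuclear speckle protein) was at 119, 126 and 124 CPM in naive libraries, at 154, 151 and 137 at 12 h and at 132, 138 and 144 at 24 h, with no overlap between injured and naive libraries. It rose by 0.28 ± 0.07 at 12 h (FDR 0.0495) and by 0.20 ± 0.07 at 24 h (FDR 0.0737). The 12 h call was lost without each naive library and without 12 h replicates 1 and 2 (FDR 0.127 to 0.223), and the 24 h call without each naive library and without 24 h replicates 2 and 3 (FDR 0.112 to 0.222). Clk3 was at 41.6, 40.1 and 41.1 CPM in naive libraries and at 47.1, 49.3 and 46.3 at 24 h. That small difference passed the test at 24 h (0.25 ± 0.07, FDR 0.0425) and did not without naive replicate 2 (FDR 0.148) or naive replicate 3 (FDR 0.112). Clk2 stayed between 7.23 and 9.03 CPM in all 12 libraries. In all, 4 of 10 members were called at 12 h (background 5.10% of 11334 genes), 4 at 24 h (18.3%) and 1 between 12 and 24 h (19.8%). Rsrp1, Clk1 and Srsf5 are among those called at 12 h, and Rsrp1 and Srsf5 among those at 24 h. These genes chose the set by their 4 h values against the same naive libraries. The counts against naive, here and below, therefore cannot show that the set responded more often than other genes. The median log2 change of the members at 12 h was -0.04, against 0.00 over all genes. Without the 12 h library in which satellite glia markers were raised, Rsrp1 gave -1.19 (FDR 0.00395), Srsf2 0.34 (FDR 0.0492) and Srsf5 0.45 (FDR 0.0247).

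The whole lysate of the same line showed Rsrp1 and Srsf5 on the same sides at 12 h, with fewer libraries. In the Isl1 input, Rsrp1 was at 91.9, 94.7 and 121 CPM in naive libraries, at 70.2 and 34.7 at 12 h and at 69.7 and 70.9 at 24 h. All injured libraries were below the naive ones, and the 12 h libraries were far apart. Rsrp1 fell by 0.92 ± 0.22 on the log2 scale at 12 h (FDR 0.0691), and gave -0.51 without 12 h replicate 3 (FDR 0.368) and -1.50 without 12 h replicate 2 (FDR 0.00822). Srsf5 was at 92.1, 92.3 and 100.1 CPM in naive libraries and at 123 and 126 at 12 h, higher by 0.44 ± 0.09 (FDR 0.0377). Both calls were lost without naive replicate 1 (FDR 0.164 for Rsrp1, 0.17 for Srsf5) or naive replicate 2 (both 0.124), that of Rsrp1 also without naive replicate 3 (0.135), and that of Srsf5 also without 12 h replicate 2 (0.102) or replicate 3 (0.333). These 2 of 10 members, both among the reasons for the choice of the set, stood against a background of 4.46% at 12 h. Clk3, outside those reasons, was not called, but was higher at 12 h under some alternatives. It passed with DESeq2 (0.31, FDR 0.0977), edgeR's likelihood ratio test (0.32, FDR 0.0954) and the compared groups alone (0.32, FDR 0.0556). At 24 h, edgeR called 0 members (3 at an unadjusted p under 0.05, 0 with DESeq2, background 8.44%). Clk3 passed there with the likelihood ratio test (0.31, FDR 0.0968) and Rsrp1 with the compared groups alone (-0.52, FDR 0.0605). Between 12 and 24 h edgeR also called 0 (1 at an unadjusted p under 0.05, 0 with DESeq2, background 1.95%).

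The difference in response between the neuronal pull-down and the lysate was tested directly. At 12 h, edgeR called 0 of 10 members for this interaction (0 at an unadjusted p under 0.05, 0 with DESeq2, background 0.0176%), and at 24 h again 0 (0 and 0, background 0%). Rsrp1 gave -0.39 ± 0.30 at 12 h and -0.02 ± 0.30 at 24 h, and Clk1 gave -0.61 ± 0.36 and 0.06 ± 0.36. A difference of this size in either direction was thus within the error of the libraries, which does not show that both fractions responded alike.

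**Figure D2:**
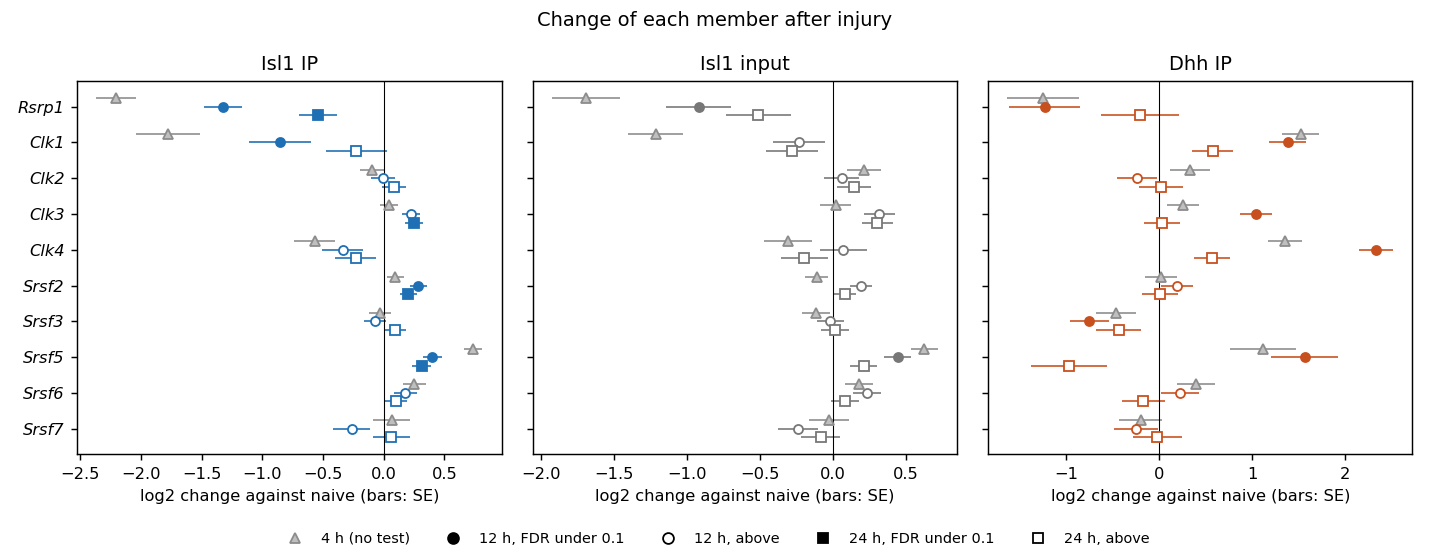
Log2 change against naive (x axis, bars are SE) of the 10 members in the Isl1 IP, the Isl1 input and the Dhh IP; grey triangles are 4 h values, which chose the members, circles 12 h and squares 24 h, filled where the FDR was under 0.1. Clk4 at 12 h stands at 2.33 in the Dhh IP and at -0.34 in the Isl1 IP, while Rsrp1 at 12 h stands at -1.24 and -1.33.

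In the glial pull-down Clk1, Clk3 and Clk4 rose at 12 h and Clk2 was not called. In the neuronal pull-down Clk1 alone of the kinases was called at 12 h, and there it was lower. Clk3 was higher there without a call (0.22 ± 0.07, FDR 0.13), and its libraries did not overlap with the naive ones. It passed with DESeq2 (FDR 0.0668), edgeR's likelihood ratio test (FDR 0.0999) and the compared groups alone (FDR 0.0965). Clk4 in the Dhh IP was at 27.5, 20.3 and 27.4 CPM in naive libraries, at 92.7, 119 and 121 at 12 h, and at 44.0 and 31.6 at 24 h. The 12 h libraries were above all others of the course, 4 h included (58.4, 69.7 and 60.4). Clk4 rose 5.04-fold at 12 h (log2 2.33 ± 0.18, FDR 1.09e-06) and fell 3.40-fold from 12 to 24 h (-1.77 ± 0.21, FDR 7.94e-05). Per base it reached 56.8 ± 8.01 FPKM at 12 h, the highest mean of any of the 4 kinases in any group.

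Clk1 was at 41.6, 26.1 and 25.3 CPM in naive Dhh libraries, at 60.9, 76.3 and 74.8 at 12 h, and at 54.1 and 39.5 at 24 h. It rose 2.61-fold at 12 h (1.38 ± 0.20, FDR 1.6e-04) and fell 1.75-fold from 12 to 24 h (-0.81 ± 0.22, FDR 0.0196), a call lost without 24 h replicate 3 (-0.60, FDR 0.206). Clk3 was at 16.9, 16.8 and 20.0 CPM in naive libraries, at 33.1, 31.3 and 32.8 at 12 h, and at 20.9 and 16.2 at 24 h. The 12 h libraries of Clk3 were close to each other and apart from the rest of the course, and it rose 2.06-fold (1.04 ± 0.17, FDR 4.78e-04) and then fell 2.02-fold (-1.01 ± 0.20, FDR 0.00226). Clk2 gave -0.24 ± 0.21 at 12 h (FDR 0.441).

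Srsf5 was the SR factor with the widest range in glia. It was at 94.7, 67.5 and 206 CPM in naive Dhh libraries, at 259, 417 and 282 at 12 h, and at 91.4 and 35.9 at 24 h. One naive library lay apart from the others, yet below all 12 h libraries. Srsf5 rose 2.96-fold at 12 h (1.56 ± 0.36, FDR 0.00555) and fell 5.79-fold from 12 to 24 h (-2.53 ± 0.44, FDR 0.00119).

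Srsf3, which also takes part in mRNA export, was at 229.5, 209 and 213 CPM in naive Dhh libraries and at 135, 149 and 59.6 at 12 h, all lower. It fell by 0.75 ± 0.21 on the log2 scale (FDR 0.0181), and gave -0.46 without the lowest library, 12 h replicate 3 (FDR 0.00858). Rsrp1 was at 40.0, 42.0 and 57.8 CPM in naive libraries, at 23.7, 23.2 and 6.29 at 12 h, and at 59.0 and 22.9 at 24 h. It fell 2.35-fold at 12 h (-1.24 ± 0.38, FDR 0.0281), which was lost without naive replicate 3 (-1.05, FDR 0.103). From 12 to 24 h Rsrp1 rose by 1.03 ± 0.42 (FDR 0.0969) with overlapping groups, which was lost without 12 h replicate 3 (0.64, FDR 0.161) or 24 h replicate 1 (0.18, FDR 0.846), and which gave 1.56 without 24 h replicate 3 (FDR 0.0426). The summed level of 6 satellite glia markers also moved over this course, at 13020 to 16010 CPM in naive libraries, 16960 to 18880 at 4 h, 10920 to 12340 at 12 h and 11690 to 13060 at 24 h. It was above naive at 4 h and below naive at 12 h. The Schwann cell markers overlapped between naive (19470 to 23430) and 12 h (20780 to 27820), and the part of either in the members' changes was not tested. In all, 6 of 10 members were called at 12 h (background 32.8% of 11036 genes), with a median log2 change of 0.21 against -0.02 over all genes, and 5 between 12 and 24 h (27.7%). Rsrp1, Clk1 and Srsf5, which chose the set at 4 h, are among the 6. At 24 h against naive, edgeR called 0 (3 at an unadjusted p under 0.05, 0 with DESeq2, background 2.67%). Only 2 libraries stood behind each Dhh 24 h value. Without 12 h replicate 3, Srsf2 (0.38, FDR 0.0599) and Srsf6 (0.47, FDR 0.0298) also passed at 12 h.

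The difference between neuronal and glial responses was tested as an interaction over the 9946 genes shared by both tables, with the response in glia subtracted from that in neurons. At 12 h, 5 of 10 members were called (background 25.7%). Clk1 and Srsf5 are among them, and the naive libraries are those of the 4 h values that chose the set. Clk4 gave -2.66 ± 0.26 (FDR 7.44e-07), Clk1 -2.22 ± 0.35 (FDR 1.77e-04) and Clk3 -0.80 ± 0.16 (FDR 0.00169), all with higher values in glia after injury, and these 3 calls held with each library left out. Srsf5 gave -1.15 ± 0.42 (FDR 0.0611), since it rose further in glia, and Srsf3 gave 0.70 ± 0.25 (FDR 0.0581), since it fell in glia. For Srsf3 the call was lost without Isl1 IP 12 h replicate 1 or 2 or naive replicate 1 or 2 (FDR 0.105 to 0.113), and without Dhh IP 12 h replicate 3 the value was 0.39 (FDR 0.0484). For Srsf5 it was lost without 6 of 12 libraries in turn, namely Dhh IP 12 h replicate 2, Dhh IP naive replicates 1 and 2, Isl1 IP 12 h replicates 2 and 3 and Isl1 IP naive replicate 1 (FDR 0.103 to 0.139), and without Dhh IP naive replicate 3 the value was -1.75 (FDR 0.0016). Rsrp1 gave -0.07 ± 0.46 (FDR 0.932). At 24 h, edgeR called 0 members (3 at an unadjusted p under 0.05, 1 with DESeq2, background 2.94%).

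In naive ganglia, which had no part in the choice of members, Clk1 and Clk4 were lower in the neuronal IP than in the input. The input also holds RNA of glia, and the part of cell type in this ratio was not tested. Clk1 was at 8.34, 9.13 and 9.64 CPM in the Isl1 IP and at 22.8, 20.0 and 19.9 in the Isl1 input. It was at 11.9, 10.7 and 13.9 in the Adv IP against 30.3, 27.1 and 31.6 in the input, and at 6.56, 8.68 and 12.9 in the Runx3 IP against 18.8, 21.6 and 25.0. In these 3 neuronal lines every IP library was below every input library. The log2 ratio of IP to input was -1.19 ± 0.20 for Isl1 (FDR 5.82e-05), -1.23 ± 0.20 for Adv (FDR 3.59e-05) and -1.02 ± 0.20 for Runx3 (FDR 9.87e-05). PGK gave -0.52 ± 0.20 (FDR 0.0862) with overlapping groups, and this call was lost without IP replicates 1 or 3 or input replicates 2 or 3 (FDR 0.114 to 0.334). Dhh, the glial line, gave 0.16 ± 0.22 (FDR 0.503), with Clk1 at 32.4 and 25.8 CPM in the IP against 32.9, 28.1 and 24.7.

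Clk4 was at 10.1, 9.06 and 10.5 CPM in the Isl1 IP against 19.6, 16.7 and 18.1 in the input, a log2 ratio of -0.85 ± 0.27 (FDR 0.0247). It was at 10.6, 16.7 and 14.9 in the Adv IP against 25.7, 28.4 and 32.6 (-0.97 ± 0.27, FDR 0.00686). In the Runx3 IP it was at 8.72, 13.9 and 14.1 against 15.9, 27.6 and 26.7 (-0.73 ± 0.27, FDR 0.0213; lost without IP replicate 1, -0.51, FDR 0.138). None of these groups overlapped, and PGK (-0.56 ± 0.27, FDR 0.178) and Dhh (-0.38 ± 0.30, FDR 0.25) did not pass. Adv IP replicate 2 held 1124 CPM of satellite glia markers against 116 and 150 in the others, and without it Clk1 gave -1.17 (FDR 3.71e-04) and Clk4 -1.15 (FDR 0.00548). Rsrp1 was lower in the Runx3 IP, at 49.7, 65.7 and 94.7 CPM against 105, 198 and 259 in the input (-1.23 ± 0.37, FDR 0.00592), and gave -0.68 in Isl1 (FDR 0.202), -0.62 in Adv (FDR 0.19), -0.35 in PGK (FDR 0.567) and -0.06 in Dhh (FDR 0.894). The IP and input libraries of Rsrp1 did not overlap in Isl1 or in Adv either, and these fits do not pair like-numbered libraries. With a replicate block that pairs them, Rsrp1 gave -0.67 in Isl1 (FDR 0.0153) and -0.55 in Adv (FDR 0.031). Clk4 in PGK then gave -0.56 (FDR 0.00375).

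The other kinases differed from Clk1 and Clk4. Clk2 was at 20.7 and 22.2 CPM in the Dhh IP against 12.6, 11.5 and 11.9 in the input (0.97 ± 0.11, FDR 7.68e-08) and was lower in the Adv IP (-0.40 ± 0.10, FDR 0.00425). Clk3 was at 75.1, 75.4 and 78.4 CPM in the Runx3 IP against 49.4, 61.7 and 63.5 (0.59 ± 0.11, FDR 6.44e-05). Srsf6 was lower in the Dhh IP (-0.59 ± 0.20, FDR 0.0105), a call lost without input replicate 2 (-0.33, FDR 0.116). Srsf5 gave -0.34 ± 0.20 in Runx3 (FDR 0.136), without overlap, and 0.30 ± 0.22 in Dhh (FDR 0.217). Of the 7 members tested, 3 were called in Adv (background 47.1% of 10232 genes), 2 in Dhh (85.2%), 2 in Isl1 (31.0%), 1 in PGK (19.0%) and 4 in Runx3 (73.4%), and these shares of called members were near or below the backgrounds. For scale, 4 of 4 nuclear RNAs tested (Snhg11, Neat1, Miat and Meg3) were lower in the IP of all 5 lines, with medians from -2.11 to -1.68. Clk1 in the 3 neuronal lines lay between those medians and the medians over all genes (-0.01 to 0.02). Neurons and glia were mixed in the input, and Clk1 and Clk4 were higher in the Dhh IP than in the Isl1 IP (below), so the part of cell type in the ratio was not tested. In the naive libraries of the injury series, where no IP against input test was made, mean Clk1 was 22.2 CPM in the Isl1 IP and 29.3 in the Isl1 input, a narrower gap than the 9.04 and 20.9 of the naive series.

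**Figure D3:**
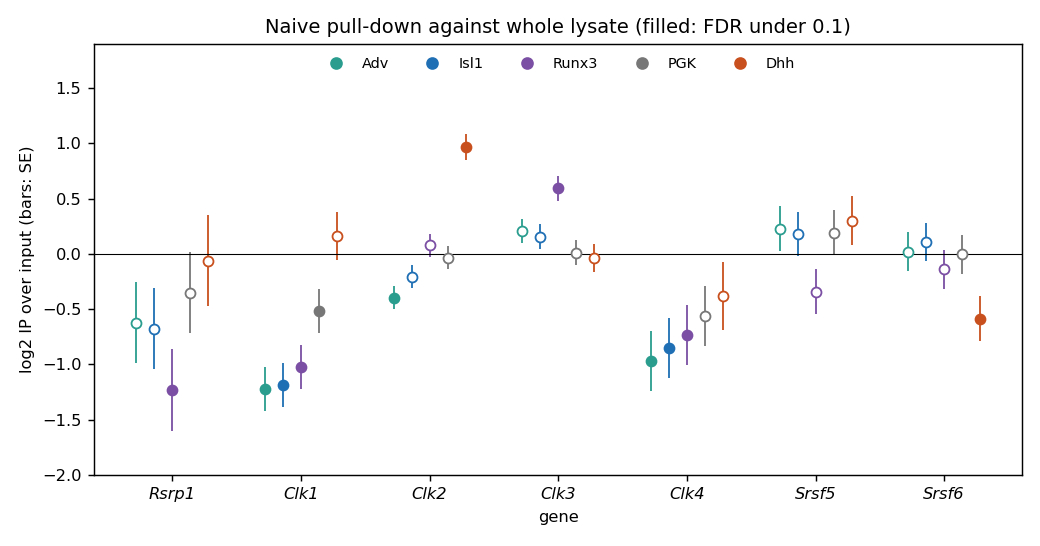
Log2 ratio of IP to input (y axis, bars are SE) in naive DRG of 5 Cre lines for the 7 members listed in both tables; points are filled where the FDR was under 0.1. Clk1 lies at -1.23, -1.19 and -1.02 in the Adv, Isl1 and Runx3 lines and at 0.16 in the Dhh line, where Clk2 lies at 0.97.

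Between naive pull-downs, the kinases were higher in glia except for Clk3. Dhh IP against Isl1 IP gave 1.85 ± 0.25 for Clk1 (FDR 2.11e-05), 1.29 ± 0.12 for Clk2 (FDR 5.77e-07) and 1.27 ± 0.28 for Clk4 (FDR 0.00126). There was no overlap between libraries for Clk1, Clk2 or Clk4, and Clk4 was at 22.8 and 20.0 CPM in the Dhh IP. Clk2 in the Isl1 IP was at 9.17, 9.87 and 10.5 CPM. Srsf3 was higher in glia by 0.97 ± 0.37 (FDR 0.028) and Srsf6 was lower (-0.37 ± 0.17, FDR 0.0663), the latter lost without Dhh IP replicate 1 (FDR 0.133) or 3 (FDR 0.183) or Isl1 IP replicate 1 (FDR 0.136). Rsrp1 was at 269 and 116 CPM in the Dhh IP against 90.7, 79.1 and 77.0 in the Isl1 IP (1.37 ± 0.36, FDR 0.00391), and gave 0.69 (FDR 0.115) without the first of these Dhh libraries. The naive libraries of the injury series had the opposite order for Rsrp1, with means of 46.6 CPM in the Dhh IP and 100.5 in the Isl1 IP, whereas Clk1 (31.0 and 22.2), Clk2 (16.8 and 8.23) and Clk4 (25.1 and 14.9) were again higher in the Dhh IP. In all, 6 of 8 members were called (background 85.0% of 10546 genes), with a median of 1.12 against 0.05 over all genes, so the share called was no higher than the background.

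Proprioceptors differed from sensory neurons as a whole in Clk3, which was 1 of 8 members called (background 55.3%). It was at 75.1, 75.4 and 78.4 CPM in the Runx3 IP against 64.1, 59.6 and 63.8 in the Isl1 IP (0.46 ± 0.10, FDR 0.00248). Clk2 also passed as higher in the Runx3 IP with DESeq2 (0.25, FDR 0.0371) and with DESeq2 size factors in edgeR (0.25, FDR 0.0753). Clk4 passed with DESeq2 (0.54, FDR 0.0862). Isl1 against Adv, 2 drivers of the same cells on different strains and allele doses, gave 0 calls with edgeR (background 0%, and 0 of the members with DESeq2). At an unadjusted p under 0.05 there were 3: Rsrp1 (-0.74 ± 0.33), Clk4 (-0.59 ± 0.26) and Clk1 (-0.51 ± 0.23).

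**Figure D4:**
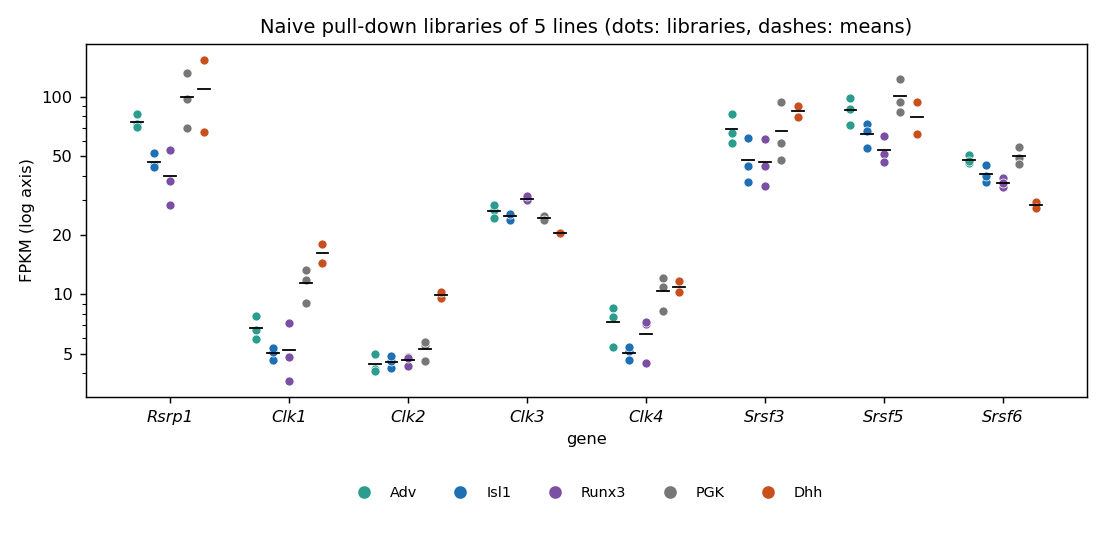
Naive pull-down levels in FPKM (log axis) of the 8 listed members in 5 Cre lines; dots are libraries and dashes are means. Clk1, Clk2 and Clk4 are higher in the Dhh line than in the Isl1 line, and Srsf5, Srsf3 and Rsrp1 reach the highest levels.

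The supernatant was compared with the input over the 5 lines together. Clk1 was lower in the supernatant (-0.34 ± 0.08, FDR 0.00747), which held with each library left out. Clk2 (-0.13 ± 0.05, FDR 0.0699) and Srsf5 (-0.21 ± 0.08, FDR 0.0852) also passed, but the call of Clk2 was lost without any 1 of 6 of the 30 libraries (replicate 3 of the Adv input, Adv supernatant, PGK input, Runx3 input and Runx3 supernatant, and replicate 1 of the PGK input; FDR 0.102 to 0.127), and that of Srsf5 without any 1 of 16 (FDR 0.1003 to 0.162). Rsrp1 had the largest difference and the widest error of the 4 (-0.37 ± 0.15, FDR 0.108), and passed with DESeq2 (FDR 0.074) and with edgeR's likelihood ratio test (FDR 0.0837). This fit does not pair like-numbered libraries. With a replicate block that pairs them, Rsrp1 gave -0.35 (FDR 0.00144), and Clk4 (-0.12, FDR 0.094) and Srsf6 (-0.09, FDR 0.0884) also passed. Without the block, 3 of 7 members were called (background 20.6%). Clk1 was thus below the input in the IP of the neuronal lines and, over the 5 lines together, in the supernatant. These amounts were unequal and were not compared in 1 test. The supernatant of the neuronal lines alone was not tested.

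Levels of several members moved together across fractions of like-numbered naive samples. Rsrp1 in the PGK line was at 140.0, 269 and 235 CPM in the input, at 122, 231 and 172 in the IP and at 124, 241 and 164 in the supernatant, with replicate 1 lowest and replicate 2 highest in all 3 fractions. The Runx3 line gave 105, 198 and 259 in the input and 49.7, 65.7 and 94.7 in the IP, in the same order. With each library taken as its deviation from its group mean, r between IP and input over 14 samples was 0.897 for Clk1, 0.84 for Clk4, 0.837 for Srsf5, 0.686 for Srsf6 and 0.682 for Rsrp1, against a median of 0.399 over 11029 genes. It was 0.309 for Clk3 and -0.085 for Clk2. Without the 2 samples farthest from the median it was 0.833 for Clk1, 0.73 for Clk4, 0.757 for Srsf5, 0.467 for Srsf6 and 0.653 for Rsrp1. Of all genes, 0.898% had an r as high as Clk1, 3.27% as Clk4, 3.56% as Srsf5 and 16.7% as Rsrp1. Between supernatant and input (15 samples, median 0.59) it was 0.838 for Srsf6, 0.829 for Srsf5, 0.823 for Rsrp1, 0.821 for Clk4 and 0.787 for Clk1, values that 13.8% to 22% of genes reached, and below the median at 0.423 for Clk3 and -0.29 for Clk2. Between IP and supernatant (14 samples, median 0.651) it was 0.95 for Srsf5 (reached by 0.607% of genes) and 0.923 for Srsf3 (3.59%), and from 0.67 to 0.896 for the other 6 members (9.06% to 47.7%). The labels do not say whether like-numbered samples came from 1 lysate, and the points share library preparation, so these values describe the samples without a test.

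**Figure D5:**
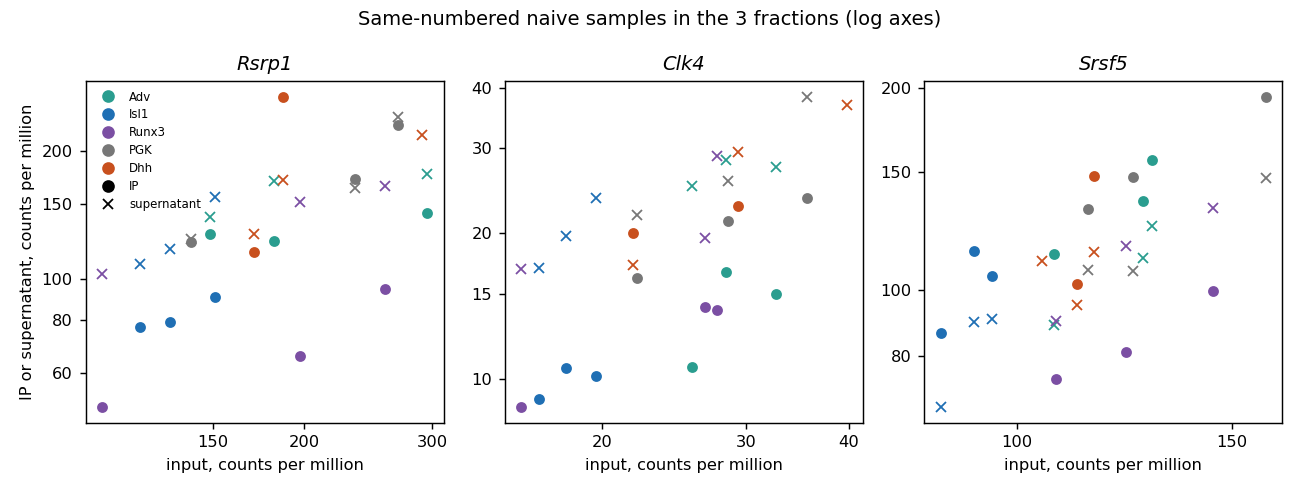
Levels of Rsrp1, Clk4 and Srsf5 in the input (x axis) against the IP (dots) or the supernatant (crosses) of the naive sample with the same number, in CPM on log axes, coloured by Cre line. Within a line, high input goes with high IP for Rsrp1 in the Runx3 line (105 to 259 in the input, 49.7 to 94.7 in the IP).

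Other genes of splicing control were taken by list, and counts are read beside the backgrounds given above. Of 6 other SR proteins, 0 passed in the Isl1 IP at 12 h and 0 at 24 h, with 2 higher from 12 to 24 h (Srsf10 0.40 ± 0.15, Srsf11 0.36 ± 0.10). In the Dhh IP, 3 of 5 fell at 12 h and none rose: Srsf1 (-1.11 ± 0.16, FDR 1.4e-04), Srsf9 (-1.07 ± 0.27) and Srsf10 (-0.75 ± 0.18). The same 3 rose again from 12 to 24 h, by 1.30, 0.90 and 0.76. Their course is thus opposite to that of Srsf5 and like that of Srsf3 at 12 h, and Srsf1 (1.03 ± 0.19) and Srsf9 (1.07 ± 0.30) also differed between neurons and glia at 12 h. The median of this list at 12 h was -0.75 in the Dhh IP, against -0.02 over all genes.

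Of 18 SR-related factors, 0 passed at 12 h and 6 rose at 24 h in the Isl1 IP, while 4 rose and 2 fell at 12 h in the Dhh IP. Tra2a, a regulator of exon inclusion that binds SR proteins, fell most clearly in glia (-1.85 ± 0.21, FDR 2.9e-05) and rose from 12 to 24 h (1.43 ± 0.23). Rbm25 (0.84 ± 0.16), Rbm39 (0.69 ± 0.12) and Srrm1 (0.65 ± 0.13), all with arginine- and serine-rich stretches, rose at 12 h and fell from 12 to 24 h (-1.19, -0.78 and -1.05). In the naive fractions Luc7l, a U1-associated factor, was higher in the IP of Adv (0.52), Isl1 (0.41), PGK (0.32) and Runx3 (0.61), each passing the test, and lower in Dhh (-0.28).

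Of the other kinases and phosphatases in the lists, Dyrk1a was higher in the Isl1 IP at 12 h (0.40 ± 0.09, FDR 0.04), 1 of 2 called of 12 tested. Hipk1 (0.51 ± 0.07) and Hipk3 (0.36 ± 0.06) were among 4 that rose there at 24 h. In the Dhh IP, 5 of 13 rose at 12 h, Dyrk1a (0.86 ± 0.11), Hipk3 (0.76 ± 0.11), Hipk2 (0.71 ± 0.14) and Hipk1 (0.64 ± 0.10) among them, and 1 fell. All of these rises were smaller than that of Clk4 in the same libraries (2.33 ± 0.18). In the Isl1 input, 2 of 13 rose at 12 h, Hipk1 (0.47 ± 0.10) and Dyrk1a (0.38 ± 0.10).

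hnRNP proteins, which often act against SR proteins at the same exons, gave 0 of 21 called in the Isl1 IP at 12 h and 4 higher at 24 h. In the Dhh IP, 10 rose and 4 fell at 12 h, led by Hnrnpll (1.70 ± 0.14, FDR 1.8e-06), Ptbp2 (1.37 ± 0.22), Hnrnpa3 (0.77 ± 0.12) and Hnrnpk (0.72 ± 0.11), and 3 rose and 10 fell from 12 to 24 h. Ptbp1, a splicing repressor that neurons switch off, was lower in the naive IP of Adv (-3.03 ± 0.25) and Isl1 (-3.20 ± 0.25) and higher in that of Dhh (2.43 ± 0.25). Of 8 cold- and heat-responsive genes, known to respond to tissue temperature and to stress, 1 rose and 3 fell in the Dhh IP at 12 h: Rbm3, a cold-induced RNA-binding protein, rose (1.12 ± 0.22) and the chaperones Hspa1b (-1.47 ± 0.45), Hspa1a (-1.14 ± 0.29) and Hsph1 fell. In the Isl1 IP, 6 of the 8 rose and 1 fell from 12 to 24 h, with Hspa1a at 1.33 ± 0.26. Neat1, a nuclear RNA, fell in the Dhh IP at 12 h (-0.95 ± 0.25) and rose in the Isl1 IP at 24 h (0.69 ± 0.15). These lists moved beside the members in the same libraries, and their part in the members' values was not tested.

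Over the 12 Isl1 IP libraries, the 5 genes with the highest positive correlation of log2 CPM were taken for Rsrp1, Clk1 and Srsf5. Inverse correlations were not ranked. Lin52 and Ago1 were among the 5 for both Rsrp1 and Clk1, and neither was for Srsf5. For Rsrp1 they were Lin52 (r = 0.947), Dnmt3a (0.929), Glis2 (0.919), Ago1 (0.917) and Zfp449 (0.914). For Clk1 they were Lca5 (0.95), Ago1 and Lin52 (both 0.934), Mtf2 and Ints6 (both 0.93), and for Srsf5 Hnrnpm (0.871), Tra2b (0.854), Cage1 (0.847), Ddx5 (0.832) and Med26 (0.831). Dnmt3a followed Rsrp1 in the 9 Isl1 input libraries as well (0.956), with 0.542 over the 11 Dhh libraries, and Ddx5, an RNA helicase, followed Srsf5 in the input (0.919) and in the Dhh IP (0.898). Hnrnpm followed Srsf5 in the Isl1 IP but had r = -0.774 in the Dhh IP.

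Among the members, Rsrp1 and Clk1 had r = 0.894 in the Isl1 IP, 0.918 in the Isl1 input and -0.718 in the Dhh IP. Clk1 and Clk4 had 0.908, 0.756 and 0.86, so this pair kept its sign in all 3 courses. Clk3 and Clk4 had 0.028 in the Isl1 IP and 0.914 in the Dhh IP, and Rsrp1 and Srsf5 had -0.883, -0.853 and -0.441. The libraries share the naive group, the sampling times and library preparation, so these values carry the group differences described above and no test.

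Counting could affect some of these values. Of 50-base windows in the member transcripts, none were shared with other genes for Rsrp1, Clk1, Clk2, Clk4 and Srsf6, while 35.2% were shared for Srsf2, 31.5% for Srsf3, 27.8% for Srsf5 and 19.0% for Clk3. Those of Srsf5 matched Gm12966, those of Srsf3 other predicted genes, and those of Srsf2 and Clk3 genes that overlap them on the other strand (Mettl23 and Mfsd11, and Edc3). Reads there that were not unique in the genome were left out by the authors, and reads of overlapping genes cannot be told apart where strand was not used, so the levels of these 4 members are less certain than those of Rsrp1, Clk1, Clk2, Clk4 and Srsf6.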

How the data were processed

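The authors prepared RNA with Ribo-Zero Gold depletion and NuGEN Ovation V2 amplification (the labels name a TruSeq kit) and sequenced it in pairs on an Illumina HiSeq. They aligned reads with STAR to mm10 and counted uniquely mapped fragments per RefSeq gene with HTSeq; the deposited tables hold these raw counts and, beside them, a normalized signal, which the authors made from the counts by 1 factor per library and which was not tested here. The submitters' processing notes also name CASAVA 1.8.2 and mm9. For the use of strand in counting, the sources used here give nothing.

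Raw counts were tested in R 4.3.3 with edgeR 4.0.16 (quasi-likelihood test, TMM scaling, limma 3.58.1), over genes with a mean FPKM above 1, with 1 fit per table or pair of tables, Benjamini-Hochberg adjustment over all genes, and calls at an FDR under 0.1. CPM scales each library total to 1e+06, and FPKM uses GENCODE M21 transcript lengths. Rsrp1 was listed in the naive tables under an older symbol, D4Wsu53e, and was matched by accession. The 2 tools, edgeR and DESeq2 1.42.0, were tested on simulated data. Totals of 29710143 to 54088821 counts leave at least 207 counts for every member in every library, and the libraries of a group spread by more than counting noise.

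The members and the gene lists were chosen with earlier results of these data known. The 10 members are named in every group; of each list, up to 4 genes with the smallest p over the injury contrasts and up to 4 over IP against input; and for Rsrp1, Clk1 and Srsf5 the 5 genes with the highest correlation over the Isl1 IP libraries (mean count of at least 50). The lists have no set test.

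Replicate numbers paired the Isl1 IP with the Isl1 input libraries (deviations from the group means correlated at 0.232 to 0.706 in 9 of 9 pairs), and the replicate block changed no call there (0 members). Alternatives were DESeq2, its size factors in edgeR, edgeR's likelihood ratio test, no FPKM filter, the replicate block, the compared groups alone, and each library left out in turn. No near-identical libraries were found among 71 pairs within groups.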

Additional observations from a re-analysis of the deposited data

Results flagged for a closer look

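The test of the difference between neuronal and glial responses singled out 5 members at 12 h after injury, where the change from naive in the Isl1 IP minus that in the Dhh IP passed an FDR of 0.1. The log2 differences were -2.22 for Clk1, -0.80 for Clk3, -2.66 for Clk4, 0.70 for Srsf3 and -1.15 for Srsf5. The call of Srsf3 was lost without any 1 of 4 of the 12 libraries, and that of Srsf5 without any 1 of 6. Isl1 IP 12 h replicate 3, with 671.9 CPM of satellite glia markers, is among those of Srsf5. Without Dhh IP 12 h replicate 3, the lowest of its group for Srsf3, both calls held. No group held enough libraries for a test of single outlying samples.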

How the results depend on the processing

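Of 196 pairs of a member and a tested contrast, 49 were called. Of these, 42 kept call and direction under every alternative that keeps all libraries. With each library left out as well, 30 did so, and 0 values of the called pairs reversed direction. Reversals were not counted for uncalled pairs, where small values could change sign. For example, Clk2 in the Isl1 IP at 12 h went from -0.01 to 0.04 without 12 h replicate 3. Of 350 values at 4 h under alternatives, 0 moved by more than 1 SD. For the Isl1 input after injury, the 2 calls became 4 with the likelihood ratio test and with the compared groups alone. With libraries left out in turn, calls ranged from 4 to 14 for the Isl1 IP (main 9), 0 to 5 for the Isl1 input (2), 10 to 13 for the Dhh IP (11), 11 to 13 for IP against input (12), 1 to 4 for supernatant against input (3), 5 to 9 between lines (7), 3 to 6 for neurons against glia (5) and 0 to 0 for IP against input responses (0). Clk1 in the Isl1 IP at 12 h was lost with DESeq2 size factors (FDR 0.102), Rsrp1 in the Dhh IP from 12 to 24 h with DESeq2 (0.192) and with 2 groups alone (0.234), Clk1 in PGK (0.118) and Srsf5 in the supernatant (0.114) with no FPKM filter, and Clk2 in the supernatant with the likelihood ratio test (0.115).

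Outside the paired fit, replicate numbers were shared without every pair deviating together (over 0.1 in 10 of 14 pairs for IP and input, 13 of 15 for supernatant and input, 8 of 18 for the Isl1 IP, 2 of 12 for the Isl1 input, 2 of 15 for the Dhh IP, 14 of 26 between lines and 10 of 33 for neurons against glia). With the replicate block, calls became 0 for the Isl1 input (at 12 h, Rsrp1 -1.02, FDR 0.202, and Srsf5 0.42, FDR 0.201), 6 for supernatant against input, 18 for IP against input and 8 between lines, 10 for the Isl1 IP, 11 for the Dhh IP, and 5 for neurons against glia. IP against input then also called Rsrp1 in Adv (-0.55, FDR 0.031) and Isl1 (-0.67, FDR 0.0153), Clk4 in PGK (-0.56, FDR 0.00375), Clk3 in Adv (0.22, FDR 0.0795) and Srsf5 in Dhh (0.27, FDR 0.0732) and Runx3 (-0.36, FDR 0.00959), and Srsf6 in Dhh was -0.33 (FDR 0.0102). The supernatant gained Rsrp1 (-0.35, FDR 0.00144), Clk4 (-0.12, FDR 0.094) and Srsf6 (-0.09, FDR 0.0884). In the paired fit of Isl1 IP and input responses the block left 0 calls.

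Over all genes, the count called in the Isl1 IP at 4 h was 343, and 614 with DESeq2, 528 with the likelihood ratio test and 1422 with the 2 groups alone; at 12 h it was 578, and 1078, 910 and 1860. With the 2 groups alone, 2069 became 1333 at 24 h and 2242 became 718 from 12 to 24 h. In the Isl1 input, 157 at 4 h became 459, 456 and 691, and 36 with the block; 548 at 12 h became 958, 985 and 1486, and 47 with the block; 1036 at 24 h became 617 with the block; and 239 from 12 to 24 h became 600, 596 and 68, and 124 with the block. In the Dhh IP, 126 at 4 h became 360, 298 and 563, 295 at 24 h became 507, 460 and 450, and 3055 from 12 to 24 h became 1659 with the 2 groups alone. Isl1 IP against input went from 3170 to 4966 with no filter, PGK from 1946 to 3676 and the supernatant from 2143 to 4543 with the block, and Isl1 against Adv from 0 to 186 with DESeq2, 42 with the likelihood ratio test and 1 with the block. Neurons against glia at 24 h went from 292 to 490 and 487, and Isl1 IP against input responses from 2 to 17, 21 and 46 (block) at 12 h and from 0 to 4, 1 and 15 at 24 h. The cause of these shifts was not tested. Groups of 2 or 3 libraries limit every value here, and the Isl1 input and Dhh 24 h groups most.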

Other observations

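Naive DRG of the Isl1 and Dhh lines were measured once in the naive series and once as the start of the injury series, in tables whose levels were scaled separately, so the mean CPM of each are given side by side without a test. In the Isl1 IP, Clk1 was at 9.04 in the naive series and at 22.2 in the injury series, 2.45-fold apart, and Clk4 was at 9.90 and 14.9. Clk3 went the other way, at 62.5 and 40.9. In the Isl1 input, Clk3 was at 57.1 and 35.0 and Clk1 at 20.9 and 29.3. In the Dhh IP, Rsrp1 was at 193 and 46.6, 4.13-fold apart, Clk3 at 51.3 and 17.9, and Srsf6 at 99.8 and 64.6. None of these groups overlapped, nor did those of Clk2 in the Isl1 IP and input or of Srsf6 and Srsf7 in the Isl1 input. Srsf3 and Srsf5 overlapped wherever both sets listed them. The share of all genes without overlap was not counted, so these gaps cannot be called particular to the members.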
